A study of Mus musculus with 7 samples.

Results

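REST is a zinc-finger repressor that binds the RE1 element of neuronal genes and keeps them silent outside neurons. Its C-terminal part recruits a CoREST scaffold (Rcor1, Rcor2 or Rcor3) that carries the histone H3K4 demethylase LSD1 (Kdm1a), the deacetylases Hdac1 and Hdac2 and the histone reader Phf21a, while its N-terminal part recruits Sin3a, a second scaffold for the same deacetylases. Ehmt2 (G9a), an H3K9 methyltransferase, is recruited to RE1 sites as well, and in embryonic stem cells the complex is known for holding terminal neuronal genes low. These 10 genes were taken by name, though with earlier results of these data known. For each, the row of the deposited table whose RefSeq transcript belongs to the gene was used. Where a gene had several rows, the one with the highest mean was taken. All 10 were found among 20294 genes.

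The study followed mouse E14 embryonic stem cells kept in 2i, whose kinase inhibitors hold them in the naive state. All cells carried the Brn2-RFP GAVPO induction cassette, in which the light-switched factor GAVPO drives Brn2 (Pou3f2), a POU factor of the neural lineage, with a red fluorescent protein. Light came from an LED (300 µW) for 0, 2, 4, 6, 14, 24 or 48 h. There was 1 library per time point, and the samples analysed here include no unlit control at the later times and none without the cassette. The labels do not say whether the cells are 1 clone.

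Because the deposited values divide reads by the whole genomic span, introns included, each value was multiplied by the span and divided by the exonic length, so that levels can be compared between genes. All levels below are on this exon-scaled scale (reads per kilobase of exon, scaled to the depth of the library). The depth implied by the values ranged from about 7060000 reads (4 h) to 16120000 reads (48 h). Pou3f2 stood at 77.0 at 0 h, peaked at 119 at 14 h and was lowest, 7.19, at 48 h, and the measured Pou3f2 level did not follow the labelled time. Of 10 stem cell markers, including Pou5f1, Nanog and Sox2, all 10 passed the filter, and their summed level lay between 2741 and 4342. These markers did not move together, and at 48 h 6 of the 10 were above 0 h. Dppa5a, the largest part of the sum, was 1957 at 0 h and 893 at 48 h, and Zfp42 373 and 231. In the same libraries Utf1 was 30.9 and 393, and Pou5f1 537 and 820. Summed levels ran from 74.0 (0 h) to 383 (48 h) for 10 neuronal markers and from 111 (0 h) to 342 (48 h) for 7 neural progenitor markers. Most of the latter sum was Vim (105.7 and 312.9). Sox3 was 0.716 and 17.2 in the same libraries (adjusted p = 0.0064 in the limma trend test described below), and Hes5 0.106 and 6.28. Nes was 3.105 and 2.89 there, and Pax6 stayed below 1. Most of the neuronal sum was Tubb3 (30.6 and 252.8) and Stmn2 (37.4 and 92.7). Map2, which is not on the list of REST targets used below, was 0.417 and 6.23 (adjusted p = 0.042 in the same limma test). For the other lineages summed levels lay between 2.18 and 18.7 (8 fibroblast and feeder markers), 2.81 and 11.2 (7 primitive endoderm markers), 10.5 and 22.5 (6 trophoblast markers) and 1.45 and 3.35 (5 mesoderm markers). At 48 h Col1a2 made up 14.5 of the fibroblast sum and Foxa2 8.88 of the endoderm sum. Of the other endoderm markers, Gata4, Sox17, Pdgfra and Dab2 were lower than at 0 h, and Gata6 and Sox7 were higher. Sox17, Dab2 and Gata6 had at most about 9 reads in either library. Libraries also differed in a trend tied to GC content. The median deviation from the gene mean in the 10% of genes richest in GC was -0.27 (log2) at 0 h and 0.46 at 48 h, and values with this trend removed are given where they matter.

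Part of the sequence that REST recognises is shown here in 4 of its known target genes, whose levels are described further on. The left part of the RE1 element, TTCAGCACC, was searched for on both strands in the promoter windows of RefSeq (GRCm38.p6, 250 bases before to 50 after a start). It was found in 122 of 32851 windows (0.371%) and in 4 of the 44 target genes with a window (9.09%). In the lines below, of 30 bases each, this left part is in capitals and is read 5′ to 3′ on its own strand.
Syn1: tcggaTTCAGCACCgcggtcagagccttcg
Celsr3: ctccgTTCAGCACCgtgggcagcacttctg
Scg2: gccgtTTCAGCACCggacagctcctcggct
Unc13a: gtcgcTTCAGCACCgggggcgcggacagcg
Against the longer RE1 core, in which a right part follows the left one after 2 free bases, the Syn1 and Celsr3 sites each had 1 mismatch, the Unc13a site had 3 and the Scg2 site 5. These counts allow that spacing only. In the Scg2 and Unc13a lines the right part, GGACAG, occurs whole but at another distance from the left part. The whole core was found in 4 windows (0.0122%), none of them of a target gene or of a member. The windows lie at chrX:20921126-20921155 (minus strand), chr9:108825913-108825942 (plus), chr1:79440020-79440049 (plus) and chr8:71671722-71671751 (plus) in the order printed, and the Unc13a site lies after the start. A match of letters is a description and not a measured binding site.

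Hdac1 was the most abundant member and Rcor3 the least. Mean levels over the 7 libraries were 203 for Hdac1, 84.6 for Kdm1a, 83.6 for Hdac2, 53.5 for Rcor2, 23.0 for Rest, 12.8 for Rcor1, 10.6 for Sin3a, 10.2 for Ehmt2, 9.48 for Phf21a and 1.40 for Rcor3. In this order 3 steps held in every library without overlap of the ranges: Hdac1 above Kdm1a, Rest above Rcor1, and Phf21a above Rcor3. The other neighbours overlapped, and Kdm1a exceeded Hdac2 in 4 of 7 libraries, with means that differed 1.01-fold. The order uses 1 transcript row per gene. Sin3a and Phf21a have 3 rows each and Ehmt2 has 2, and how reads were divided among rows is not stated. If they were divided, these genes are placed too low, so their places are uncertain.

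**Figure D1:**
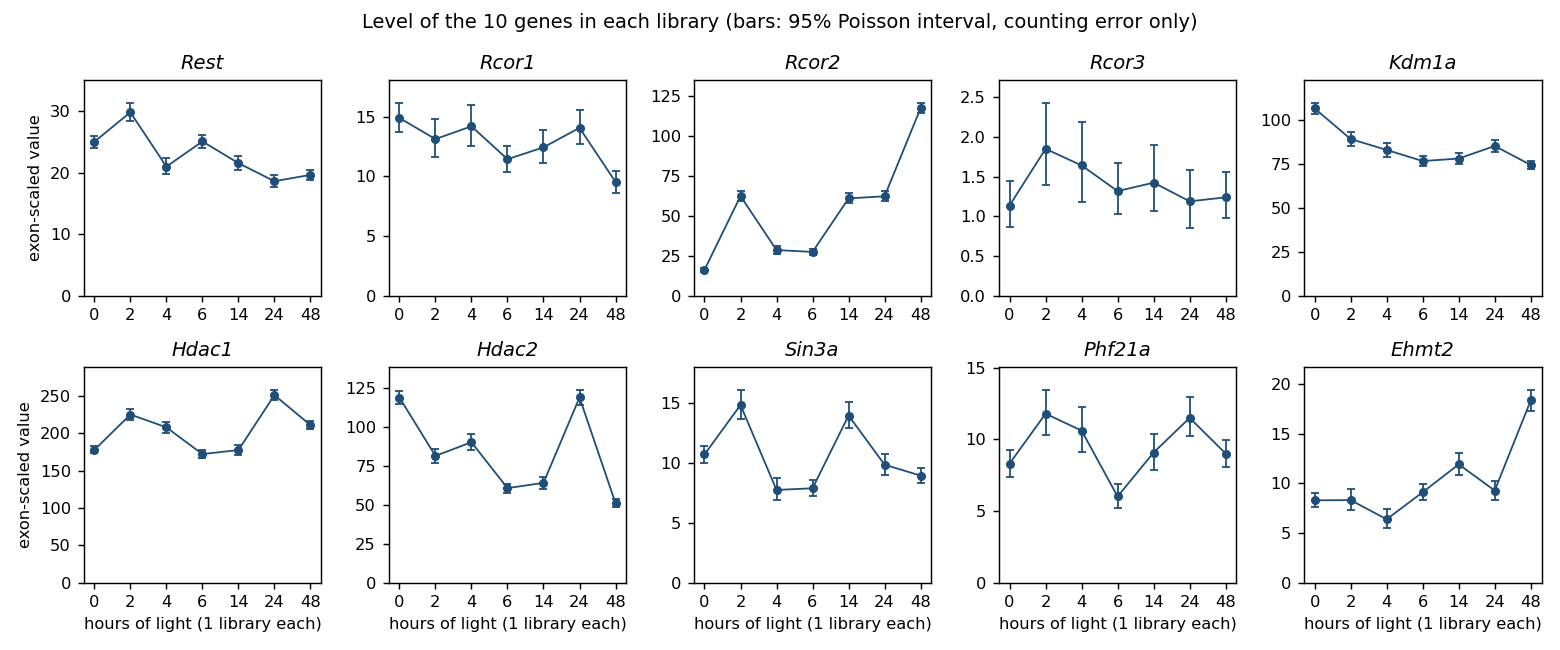
Exon-scaled level (vertical axis, starting at 0) of each of the 10 genes in the 7 libraries, in order of hours of light (horizontal axis, not to scale). Bars are 95% Poisson intervals of the approximate read numbers and cover counting error only; Rcor2 runs from 16.2 at 0 h to 117 at 48 h, while Rest stays between 18.6 and 29.8.

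No member passed the trend test over time. The test was limma on log2 (level + 1) against log2 (hours + 1) over the 7 libraries, and genes with a Benjamini-Hochberg adjusted p under 0.05, over all 11314 tested, were taken as changed. It called 0.725% of all genes higher and 0.239% lower with time (0.963% in either direction), and 0 of 10 members. With the GC trend removed it called 0.557% higher and 0.256% lower (0.813% in either direction), and again 0 members. Unadjusted p was under 0.05 for 2 members, Rcor2 and Ehmt2, and for 21.5% of all tested genes. On reads recovered from the values, a limma-voom fit called 1 member, Rcor2, against 2.25% of genes called higher and 0.823% called lower (3.07% in either direction). Fitted changes were positive in 4 members and negative in 6, with a median of -0.15 (log2) against -0.03 over all tested genes. The median SD of the members' log2 levels was 0.26, against 0.33 over all tested genes, which were not matched for level. Rcor2 (0.95), Hdac2 (0.47), Ehmt2 (0.44) and Sin3a (0.34) lay above that 0.33. The lowest SD, 0.15, was that of Rcor3, whose level is close to the 1 added before taking logs. As no time point has a replicate, these p-values measure scatter around a line and not the spread between cultures.

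**Figure D2:**
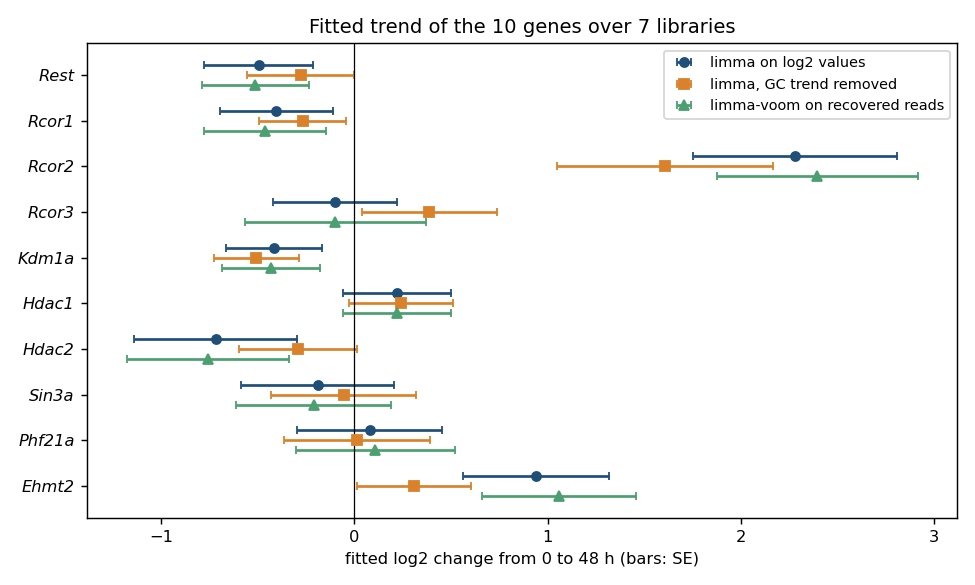
Fitted log2 change from 0 to 48 h (horizontal axis, bars are SE) for each gene under 3 fits of the same 7 libraries. Rcor2 stands apart at 2.28, 1.61 with the GC trend removed and 2.40 on reads, and Ehmt2 goes from 0.94 to 0.31 when the GC trend is removed.

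Rest, the DNA-binding subunit, was present in every library and its extremes were less than 2-fold apart. Its level was 25.02, 29.8, 21.0, 25.1, 21.6, 18.6 and 19.7 in the libraries of 0, 2, 4, 6, 14, 24 and 48 h. The 2 h library was the highest and the 24 h library the lowest, 1.60-fold apart, on about 1038 to 2606 reads. The libraries of 14 to 48 h (18.6 to 21.6) overlapped those of 0 to 6 h (21.0 to 29.8) at the 4 h library. Over the course, limma fitted a log2 change of -0.50 ± 0.28 (SE; adjusted p = 0.324). Once the GC trend was taken out it was -0.28 ± 0.28 (adjusted p = 0.631), and the 48 h library then differed from 0 h by only 0.0061 (log2). The SD of its log2 level, 0.23, was at the 19.9th percentile of tested genes. Rest is covered by a single transcript row, so REST4, the truncated neuronal splice form, cannot be told apart from full-length Rest here.

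The genes whose levels followed Rest most closely over the 7 libraries were Aff1, Dtl, Ddi2, Gpkow and Snx18. Likeness was the root mean square difference between log2 profiles centred on their own means, among 7454 genes with a mean of at least 5. It was 0.062 for Aff1, a subunit of elongation complexes, 0.073 for Dtl, a substrate receptor of a ubiquitin ligase, 0.092 for Ddi2, 0.093 for Gpkow and 0.10 for Snx18. Aff1, for example, was 22.2, 26.5, 19.4, 22.6, 19.5, 19.0 and 18.1 in order of time. These profiles are nearly flat and share the same 7 libraries, so their likeness is a description.

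Among the CoREST scaffolds, Rcor2 varied most: its highest library was 7.24-fold its lowest, against 1.56-fold for Rcor1 and 1.63-fold for Rcor3. Rcor2, the paralog known for its high level in embryonic stem cells and neural progenitors, had levels of 16.2, 62.2, 28.5, 27.4, 60.8, 62.1 and 117 in order of time. All 6 later libraries were above 0 h, but the course was not steady: the 2 h library was close to those of 14 and 24 h, and the 4 and 6 h libraries lay well below it. The 48 h level rested on about 5330 reads and the 0 h level on 679. Because of the 2 h library, the ranges of 0 to 6 h (16.2 to 62.2) and 14 to 48 h (60.8 to 117) overlapped.

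The fitted log2 change of Rcor2 was 2.28 ± 0.53 (SE) and just missed the threshold (adjusted p = 0.063 by limma). This change exceeded that of 99.1% of tested genes. On recovered reads Rcor2 rose with time (2.40 ± 0.52, adjusted p = 0.035 by limma-voom), as it did with time taken in hours (2.10, adjusted p = 0.039) and without the 2 h library (2.76, adjusted p = 0.029). Without the 48 h library the fitted change was 1.90 (adjusted p = 0.489). The Rcor2 transcript is rich in GC (61.6%, above 97.5% of tested genes), and after GC correction its fitted change was 1.61 ± 0.56 (adjusted p = 0.169). On that scale the log2 ratios of the 6 later libraries to 0 h were 1.67, 0.65, 0.11, 1.30, 1.74 and 1.88, so Rcor2 was still highest at 48 h and the 6 h library was close to 0 h.

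The promoter of Rcor2 is printed because this gene differed most between libraries among the 10 members. It is the stretch of 250 bases before the RefSeq start, chr19:7267144-7267393 (GRCm38.p6, plus strand), with CpG pairs in capitals.
Rcor2: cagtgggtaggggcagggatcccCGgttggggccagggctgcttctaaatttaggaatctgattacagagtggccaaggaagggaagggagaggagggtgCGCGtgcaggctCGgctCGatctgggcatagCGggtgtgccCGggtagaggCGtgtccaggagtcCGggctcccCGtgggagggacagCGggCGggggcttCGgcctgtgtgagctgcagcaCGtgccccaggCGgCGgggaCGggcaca
It holds 17 CpG pairs and 67.6% GC, against medians of 6 and 52.4% over 32851 promoters. Neither TTCAGCACC nor the octamer ATGCAAAT, the letters bound by POU factors, was found on either strand in its window of 300 bases. The octamer was found in 1.74% of all windows and in none of those of the 8 members with an entry, which says only that these letters are not in those windows.

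Rcor1, the scaffold first described in the REST complex, was highest at 0 h (as were 21.5% of all tested genes) and lowest at 48 h (25.6%). Its level was 14.9, 13.1, 14.2, 11.4, 12.4, 14.1 and 9.54 in order of time, lower than 0 h in 6 of 6 later libraries. The fitted log2 change was -0.40 ± 0.29 (SE) and did not pass (adjusted p = 0.435 by limma). It was -0.27 after GC correction and -0.17 without the 48 h library. Rcor3, the third paralog, lay between 1.14 at 0 h and 1.85 at 2 h on only 43 to 75 reads. Its 95% Poisson intervals at 0 h (0.869 to 1.45) and 2 h (1.39 to 2.43) overlapped, and so low a level was not compared further between libraries.

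The mix of scaffold transcripts differed between libraries. At 0 h Rcor1 made up 46.3% of the summed level of the 3 paralogs and Rcor2 50.2%. In the 6 later libraries Rcor2 took 80.6%, 64.3%, 68.2%, 81.4%, 80.3% and 91.6%, and Rcor1 was down to 7.46% at 48 h. The ratio of Rcor2 to Rcor1 was 1.085 at 0 h and 12.28 at 48 h. Between these libraries the summed level of the 3 paralogs went from 32.2 to 127.9, while Rcor1 was lower at 48 h. Rcor3 made up 0.970% to 3.70%. These shares and ratios are of transcript levels without GC correction, and not of protein.

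**Figure D3:**
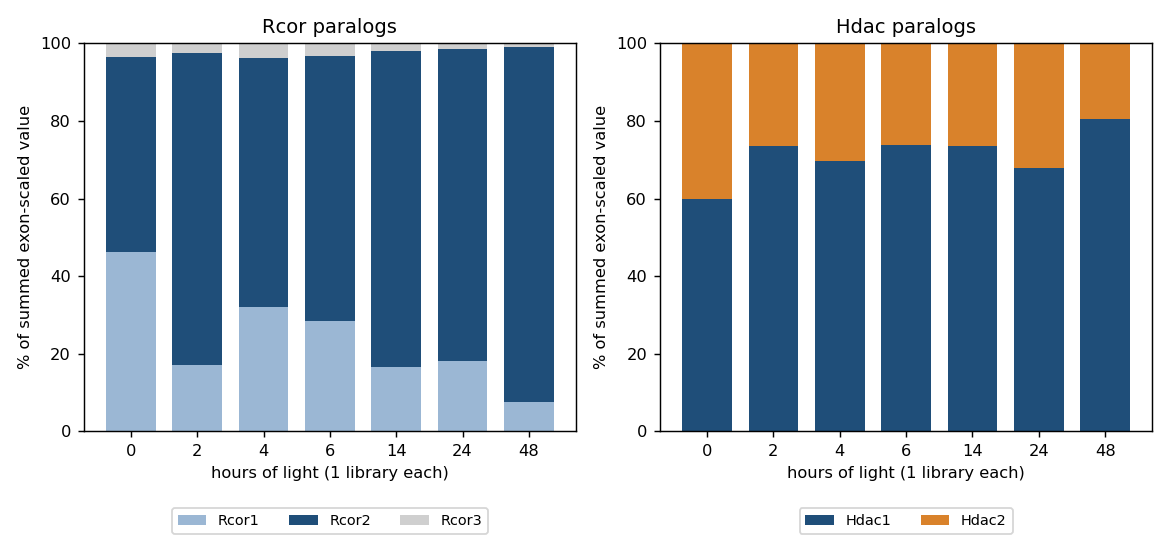
Share of the summed exon-scaled level (vertical axis, percent) taken by each paralog in each of the 7 libraries, for the 3 Rcor scaffolds and for Hdac1 and Hdac2. Rcor2 goes from 50.2% at 0 h to 91.6% at 48 h, and Hdac2 from 40.1% to 19.5%. The shares carry no GC correction.

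The 5 genes most like Rcor2 by the same measure were Ddah2, Romo1, F2rl1, Pcbp4 and Vegfb, with root mean square differences of 0.32, 0.33, 0.34, 0.35 and 0.36. Romo1, a mitochondrial membrane protein, rose in the limma test (4.304 to 20.4 between 0 and 48 h, adjusted p = 0.030), as did F2rl1, Pcbp4 and Vegfb (adjusted p = 0.021 each). Ddah2, which breaks down methylated arginine, went from 4.05 to 30.4 and did not pass (adjusted p = 0.072). Of these 5, F2rl1 alone has an ordinary GC content (48.3%), and the others lie between 59.4% and 62.6%. The 5 genes were picked by their likeness to Rcor2 over the same 7 libraries. A positive trend thus came with the choice, and their calls are a description.

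Kdm1a, the demethylase carried by CoREST, stood highest at 0 h, as did 21.5% of all tested genes. Its level was 106.5, 89.1, 82.9, 76.5, 78.0, 85.1 and 74.3 in order of time, lower than 0 h in 6 of 6 later libraries and never by more than 1.43-fold. The fitted log2 change was -0.41 ± 0.25 (SE; adjusted p = 0.342 by limma), and -0.51 ± 0.22 after GC correction (adjusted p = 0.257). Without the 0 h library it was -0.22. Kdm1a overlaps Luzp1 in the annotation, and reads of the 2 genes may be shared. The level of Kdm1a was 6.58-fold that of Rcor2 at 0 h, and at 48 h Rcor2 was the higher of the pair (1.58-fold). Relative to Rest, Kdm1a stayed between 2.99-fold and 4.57-fold in all 7 libraries. Rcor2 went from 0.646 of the Rest level at 0 h to 5.96 times it at 48 h. These ratios between genes carry no GC correction. Corrected for GC, Rcor2 at 48 h stood 1.88 (log2) above 0 h, against 2.78 uncorrected. The matching values were -0.605 and -0.512 for Kdm1a, and 0.0061 and -0.33 for Rest. Whether Rcor2 exceeds Kdm1a at 48 h once GC is corrected was not tested.

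The deacetylases showed no common direction. Hdac1 was 178, 225, 208, 172, 177, 251 and 211 in order of time, with a fitted log2 change of 0.22 ± 0.28 (SE; adjusted p = 0.665 by limma), or 0.11 and 0.073 when 0 h or 24 h was left out. Hdac2 was 118.9, 81.4, 90.2, 60.7, 64.0, 118.9 and 51.0 in the same order. Its 0 h and 24 h libraries were the highest and equal to the digits printed, and the 48 h library was the lowest, at 42.9% of 0 h. The fitted log2 change of -0.72 ± 0.42 did not pass (adjusted p = 0.332), and after GC correction it was -0.29 ± 0.31 (adjusted p = 0.650). Without the 24 h library it was -1.18 (adjusted p = 0.064), and leaving out 48 h or 0 h instead gave -0.35 or -0.40. Hdac1 exceeded Hdac2 in all 7 libraries, from 1.49-fold at 0 h to 4.13-fold at 48 h. Mouse Hdac1 has a pseudogene copy, Hdac1-ps, and the sources used here do not say how reads that match both were counted, so its level is uncertain.

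Sin3a, the scaffold at the N-terminal end of REST, went up and down without a trend. Its level was 10.7, 14.9, 7.75, 7.89, 14.0, 9.86 and 8.94 in order of time (fitted log2 change -0.19 ± 0.40 SE, adjusted p = 0.802 by limma). The 2 h and 14 h libraries were high and those of 4 and 6 h low. Its 3 transcript rows shared this pattern: each was highest at 2 h and next at 14 h.

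Ehmt2, the G9a methyltransferase, was highest at 48 h. Its level was 8.30, 8.32, 6.39, 9.11, 11.9, 9.29 and 18.4 in order of time, so that 48 h was 2.21-fold 0 h. The late libraries (9.29 to 18.4) lay above the early ones (6.39 to 9.11) without overlap, which was true of no other member in either direction. Of all tested genes, 7.51% were higher and 6.8% lower in the late libraries without overlap (14.3% in either direction). The gap rests on the libraries of 6 and 24 h, whose Poisson intervals (8.34 to 9.95 and 8.37 to 10.3) overlapped. The fitted log2 change was 0.94 ± 0.38 (SE; adjusted p = 0.189 by limma), and 0.43 or 1.43 when 48 h or 0 h was left out. Ehmt2 is also rich in GC (60.8%), and after GC correction its change was 0.31 ± 0.30 (adjusted p = 0.614). The 48 h library lay above 0 h by 1.06 (log2) before that correction and by 0.20 after it.

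Phf21a (BHC80), which reads unmethylated histone H3K4, showed different patterns in its 3 transcript rows. The row used, NM_138755, was 8.31, 11.8, 10.6, 6.01, 9.08, 11.5 and 9.01 in order of time (fitted log2 change 0.08 ± 0.37 SE, adjusted p = 0.914 by limma). It was highest at 2 h and lowest at 6 h. The other rows were lowest at 2 h and highest at 48 h: NM_001109691 went from 1.62 to 4.89 and NM_001109690 from 0.936 to 2.41 between these libraries. At 48 h they stood at 1.70-fold and 1.74-fold their 0 h level, against 1.08-fold for NM_138755. In GENCODE M21, NM_138755 holds an exon of 23 bases that the others lack, where both of them hold an exon of 164 bases, and it has its own first exon of 77 bases. The rows rest on 184 to 357, 33 to 213 and 45 to 246 reads per library in the order given. Most exons are shared, and the sources used here do not say how reads were divided among transcripts, and the difference between rows was not tested.

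**Figure D4:**
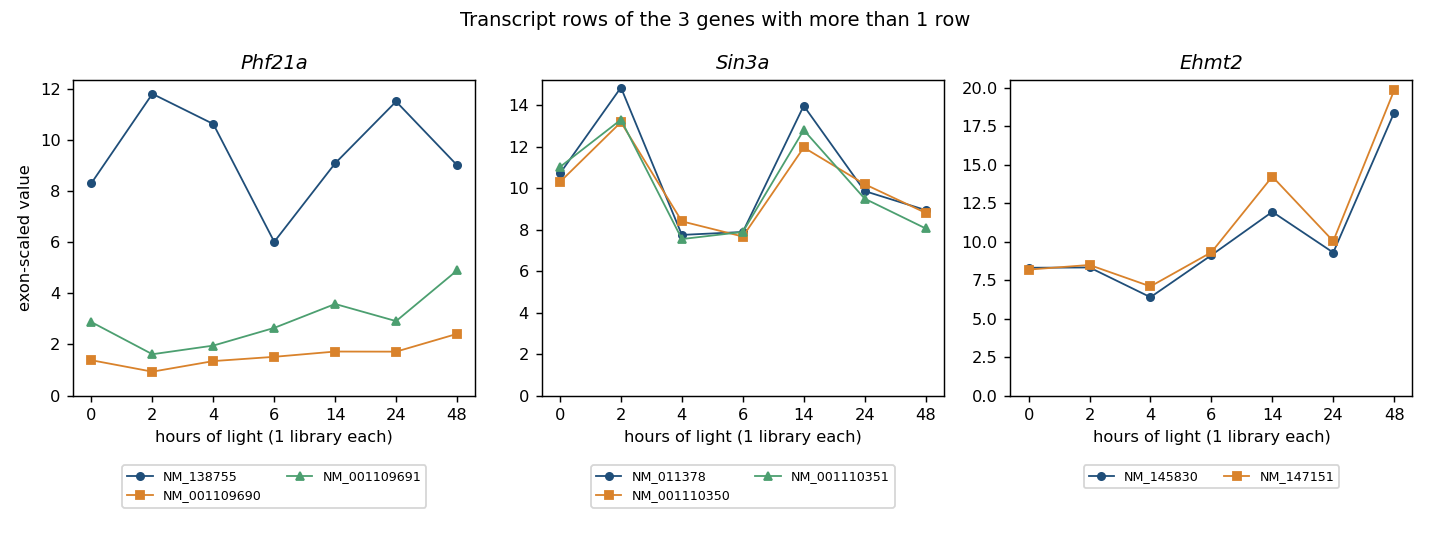
Exon-scaled level (vertical axis, starting at 0) of each transcript row of Phf21a, Sin3a and Ehmt2 in the 7 libraries. The rows of Sin3a and of Ehmt2 run together, while NM_138755 of Phf21a is highest at 2 h (11.8), where NM_001109691 (1.62) and NM_001109690 (0.936) are lowest.

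The 2 h library held the highest level of 4 of the 10 members (Rest, Rcor3, Sin3a and Phf21a), whereas 6.74% of all tested genes were highest there. Of these, Rcor3 had overlapping Poisson intervals at 0 and 2 h. Phf21a was highest at 2 h only in the row used, and its other rows were lowest there. The 48 h library held the highest level of 2 members (Rcor2 and Ehmt2) and the lowest of 3 (Rcor1, Kdm1a and Hdac2), against 23.8% and 25.6% of all tested genes. The median log2 ratio to 0 h over the 10 members was 0.29 at 2 h and -0.08 at 48 h, and over all tested genes -0.13 and -0.05. Between 0 and 48 h, 2 members were at least 2-fold higher (Rcor2 and Ehmt2) and 1 at least 2-fold lower (Hdac2), against 14.0% and 15.7% of all tested genes. All of these ratios share the 0 h library.

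Partners of the complex were read from lists of known subunits and regulators. Of 14 tested CoREST and LSD1 partners, 2 rose and 0 fell, where 0.725% of all tested genes rose (median fitted log2 change 0.34, and 0.13 after GC correction). The 2 were DNA-binding factors that recruit the complex: Insm1, which acts in newborn neurons and endocrine cells (0.245, 0.261, 0.188, 0.145, 5.60, 16.3 and 28.2 in order of time, adjusted p = 0.026 by limma), and Zeb2, a repressor of neural crest and neural development (0.372 to 5.46 between 0 and 48 h, adjusted p = 0.041). In both, every library of 14 to 48 h lay above every earlier one. Both were below 1 in all libraries of 0 to 6 h and passed the filter on the mean only through the later ones, so their count is a description. Once the GC trend was taken out, Zeb2 was still called (adjusted p = 0.036) and Insm1 was not (adjusted p = 0.068). Gfi1 and Gfi1b, which recruit LSD1 in blood cells, were below 1 in every library.

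The remaining partner lists held no call. Of 12 tested G9a partners and other corepressors at REST sites, 0 rose and 0 fell (11 positive, median 0.31). Over all tested genes, 51.9% had a negative fitted change. Wiz, a zinc-finger partner of G9a, stood at 4.86 in the 0 h library and 12.4 in the 48 h library (adjusted p = 0.229 by limma). In the same 2 libraries Zfp644, another partner, was 19.9 and 9.46 (adjusted p = 0.255). Suv39h1, an H3K9 methyltransferase, was 19.6 and 28.0 (adjusted p = 0.350), and Smarca4, the BRG1 ATPase, 11.6 and 16.7 (adjusted p = 0.366). Before and after GC correction, fitted log2 changes were 0.85 and 0.27 (Wiz), -0.67 and -0.07 (Zfp644), 0.60 and 0.62 (Suv39h1) and 0.53 and 0.175 (Smarca4). Of 15 tested SIN3 partners none passed in either direction (9 negative, median -0.26), with Arid4a at 9.28 and 3.42 (adjusted p = 0.103), Ogt, the O-GlcNAc transferase, at 62.4 and 33.1 (adjusted p = 0.152), Ing2 at 7.14 and 3.59 and Sap30 at 20.9 and 13.0. Their fitted log2 changes before and after GC correction were -1.07 and -0.62 (Arid4a), -0.76 and -0.24 (Ogt), -0.73 and -0.55 (Ing2) and -0.73 and -0.90 (Sap30). Of 9 tested genes of NuRD, a separate complex with the same deacetylases, none passed (median 0.15, and -0.23 after GC correction, so its sign turned). Mta1 there was 39.6 and 86.1 in these libraries (adjusted p = 0.093), and Mbd3, which is known to act in stem cell exit from pluripotency, 67.9 and 119 (adjusted p = 0.169), with a fitted log2 change of 0.87 that was 0.14 after GC correction. Chd4, the NuRD remodeller, was 54.7 and 65.1 with 115 at 14 h, and Gatad2a 23.2 and 43.8. GC correction took the fitted log2 change from 1.03 to 0.59 (Mta1), from 0.49 to 0.32 (Chd4) and from 0.39 to -0.04 (Gatad2a). Unadjusted p was under 0.05 for 1 of the G9a list, 4 of the SIN3 list and 2 of the NuRD list, and for 21.5% of all tested genes. No gene of these 3 lists was called on recovered reads or with the GC trend removed.

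Genes that act on REST itself were likewise not called: of 18 tested, 0 rose and 0 fell (median fitted log2 change 0.18, which turned to -0.036 after GC correction). Unadjusted p was under 0.05 for 5 of them, and for 21.5% of all tested genes. Hat1, a histone acetyltransferase, was 336.7 in the 0 h and 126 in the 48 h library (adjusted p = 0.190 by limma), and its fitted log2 change of -1.003 was -0.37 after GC correction. Usp7, which removes ubiquitin from REST, was 160 and 88.5 (adjusted p = 0.195). Dyrk1a, a kinase reported to act on REST levels, was 19.8 and 9.86 (adjusted p = 0.114). GC correction took the fitted log2 change from -0.73 to -0.44 (Usp7) and from -0.88 to -0.53 (Dyrk1a). Srrm4, the neural splicing factor that turns Rest into REST4, was named after its values were seen: it lay between 0.437 and 0.559 in the libraries of 0 to 14 h, at 0.928 at 24 h and at 5.69 at 48 h, and did not pass (fitted log2 change 1.65 ± 0.59 SE, adjusted p = 0.149).

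The summed level of known REST target genes was 139.5 at 0 h and 568.7 at 48 h, its lowest and highest, and most targets were low. Much of this sum came from Tubb3 (30.6 at 0 h and 252.8 at 48 h) and Stmn2 (37.4 and 92.7). Of 74 listed targets in the table, 27 stayed below 1 in every library and 32 passed the filter on low levels. Of those 32, 1 rose and 0 fell in the limma test. It was Ina, the neurofilament protein alpha-internexin: 3.47, 3.17, 4.39, 5.69, 9.41, 7.28 and 22.45 in order of time (fitted log2 change 2.25 ± 0.45 SE, adjusted p = 0.042, and 0.048 with the GC trend removed). All its late libraries were above all its early ones. Of the 32, 29 had a positive fitted change, with a median of 0.78 against -0.03 over all tested genes, or 0.41 with the GC trend removed. The filter was on the mean over all libraries, which favours targets that are high in at least 1 of them, so these counts are a description.

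The targets were highest relative to 0 h in the 48 h library. Their median log2 ratio to 0 h in the 6 later libraries was 0.03, 0.17, 0.34, 0.26, 0.10 and 1.27, and at 48 h 29 of 32 were above 0 h, against 47.3% of all tested genes. With the GC trend removed it was 0.09 at 24 h and 0.68 at 48 h, with 26 of 32 above 0 h. The filter on the mean bears on these values too, as some targets passed it only through the 48 h library. Sez6, for example, was 0.523 at 24 h and 11.2 at 48 h. The comparison with all tested genes is therefore a description. Tubb3, neuronal tubulin, was 58.5 at 24 h and 253 at 48 h, and Rundc3a was 2.93 and 13.0; both were chosen after their values were seen, and neither passed (adjusted p = 0.103 and 0.436 by limma). Of the 10 neuronal markers 7 are also on the target list, so the level of neuronal transcripts and that of REST targets cannot be told apart here. In bulk RNA, more cells with a transcript and more transcript per cell cannot be told apart either.

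**Figure D5:**
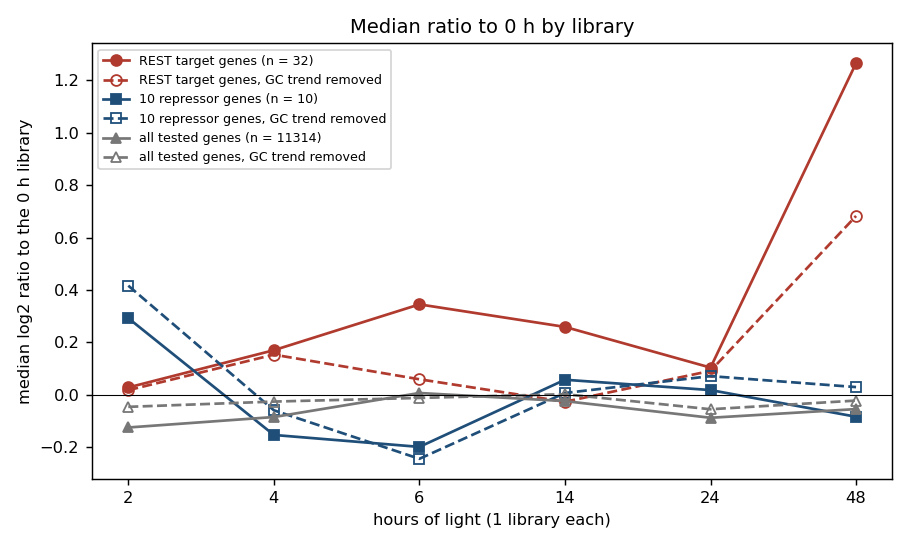
Median log2 ratio to the 0 h library (vertical axis) in each later library, for 32 tested REST target genes, the 10 repressor genes and all 11314 tested genes, without GC correction (filled) and with the GC trend removed (open). The targets reach 1.27 at 48 h (0.68 with the GC trend removed), while the repressor genes are at -0.08. The 32 targets passed a filter on the mean over all libraries, and some passed it only through 48 h, so the comparison is a description.

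The 4 targets that hold the left part of the element were low throughout. Syn1, a synaptic vesicle protein, was 1.40, 1.35, 1.99, 3.51, 1.20, 1.94 and 3.65 in order of time, on about 67 reads at 0 h and 189 at 48 h (adjusted p = 0.400 by limma). Celsr3, a cadherin of axon guidance, went from 0.797 to 3.26 between 0 and 48 h (adjusted p = 0.262). Unc13a, a factor of vesicle priming, was 0.654 and 1.73 (adjusted p = 0.396). Scg2, a granin of secretory vesicles, was listed at 0 in all libraries but that of 48 h, where it stood at 0.421 on about 17 reads. All 4 were highest at 48 h and none passed the test, Scg2 being too low for it.

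On recovered reads 56 targets could be tested, of which 5 rose and 0 fell, where 2.25% of all genes tested in that fit rose. They included Ina, Syp (0.1045 to 7.055 between 0 and 48 h, adjusted p = 0.013 by limma-voom), Gap43 (0.237 to 5.76, adjusted p = 0.026) and Onecut1 (0.073 to 2.14, adjusted p = 0.0059). Syp, Gap43 and Onecut1 had 4 to 5 reads at 0 h, and a filter on reads in 3 libraries favours genes that are high in the later ones, so this count too is a description. Syp is a synaptic vesicle protein, Gap43 a growth cone protein and Onecut1 a homeobox factor. Stmn2, another growth cone protein and one of the most abundant targets, was lowest at 0 h and highest at 4 h: 37.4, 105.7, 110.5, 72.5, 60.8, 93.2 and 92.7 in order of time (adjusted p = 0.371 by limma). Nefh, the heavy neurofilament chain, had a negative fitted change, from 10.01 to 4.78 between 0 and 48 h (adjusted p = 0.209). The genes of this paragraph other than Ina were named after their values were seen.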

How the data were processed

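Messenger RNA of 7 libraries, 1 per labelled time, was sequenced. Per the labels' protocols RNA was extracted with an RNeasy kit and libraries made with a Lexogen SENSE kit; per the submitters' processing notes reads were aligned to mm9 with Bowtie2. The sources used here give no Bowtie2 version, counting method or strand setting.

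The authors deposited 1 value per RefSeq transcript, and per the file headers no unit is named. Multiplied by genomic span and a factor for each library, 80.0% to 81.1% of low values came within 0.1 of a whole number (20% by chance), so the deposited signal behaves as reads per kilobase of span, scaled to depth. Spans, exonic lengths and GC content came from GENCODE M21 (GRCm38), so read numbers are approximate. Exon scaling takes the counted reads as exonic. Of 30673 rows, 3320 start-site rows (all 0) and 695 further placements were left out.

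Trends used limma 3.58.1 (lmFit, eBayes with trend; R 4.3.3) with pseudocount 1 and a mean of at least 1, on 11314 genes with 5 residual degrees of freedom; 6517 genes above 0 lay under that mean. The limma-voom fit required 10 reads in 3 libraries (13489 genes). The GC trend was a spline with 5 degrees of freedom over genes of mean at least 5. A gene's log2 ratios carry the same pseudocount. The fit was tested on simulated data. Early and late libraries (4 and 3) were compared by range alone.

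Named genes were the members, Pou3f2, called genes of each partner and target list or else up to 4 of mean at least 5 with the largest fitted change, and the 5 nearest profiles of Rest and Rcor2. Marker lists are given by their sums, with some of their genes named after their values were seen. Some genes that fall under these rules are not reported here. The members and lists were chosen with earlier results of these data known. Alternatives covered pseudocount, filter, scale, normalization, time scale, GC content, reads, transcript rows and each library left out.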

Additional observations from a re-analysis of the deposited data

How the results depend on the processing

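Over the 19 alternatives, 195 of 205 fitted changes of the members and Pou3f2 kept their direction and their side of the threshold. Rcor2 was positive in all 19 (1.61 to 2.76) and was called in 3, so 1 member rose with time in hours, on recovered reads and without the 2 h library, and 0 otherwise; 0 fell in any. Rest (-0.71 to -0.28), Rcor1, Kdm1a and Hdac2 were negative and Hdac1 and Ehmt2 positive wherever they could be fitted, and none of them was called. The sign turned in fits with an adjusted p of at least 0.586: Rcor3 was 0.39 with the GC trend removed and 0.0050 without the 2 h library, Sin3a 0.018 without the 2 h library, Phf21a -0.096 and -0.071 without the 0 h and the 24 h library, and Pou3f2 0.096 without the 48 h library. Leaving out each library in turn, these 4 genes ranged from -0.469 to 0.0050 (Rcor3), -0.317 to 0.018 (Sin3a), -0.096 to 0.235 (Phf21a) and -2.52 to 0.096 (Pou3f2). Pou3f2 fell with time in hours (-2.80, adjusted p = 0.040 by limma). Counts over all genes moved more. Against 82 rising and 27 falling, there were 46 rising with pseudocount 5, 0 and 1 with no filter on low values, 19 and 4 on the deposited scale, 381 and 109 with time in hours, 149 and 48 with time as rank, and 303 and 111 on reads. Leaving out 1 library gave 0 (48 h) to 220 (0 h) rising and 2 (48 h) to 67 (0 h) falling; the rising count also moved over 1.5-fold without the library of 2 h (37), 4 h (34) or 14 h (130), and the falling one without that of 4 h (14) or 24 h (61). With no filter 17831 genes were tested. The cause of these shifts was not tested. On the deposited scale Rcor1, Rcor3 and Phf21a were below the filter, as was Rcor3 with a minimum mean of 5. No paired analysis was possible because each time point has 1 library, so there are no pairs to compare. Depth limits Rcor3 (43 to 75 reads) most.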
